A study of Mus musculus with 4 samples.

Results

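A set of 9 transcription factors that mark regions of the developing forebrain were followed through 4 cultures of mouse neural stem cells, to see whether the cultures had the same regional identity. The factors were chosen by gene symbol: Otx1, Otx2, Emx2, Lhx2, Pax6, Nkx2-1, Dlx1, Dlx2 and Gsx2. They made up 9 of the 55487 genes in the table of expression values, and all 9 were found in it. Each of the 4 groups had 1 library, so no difference below has a replicate check, and the groups are compared without a test or an error.

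The cells were taken from the dorsal pallium, the embryonic region that forms the neocortex, and grown in N2B27 medium with bFGF and EGF. The control came from Tut1f/f embryos, in which exon 2 of Tut1 lies between loxP sites, and received empty lipid nanoparticles (LNP). The library labelled Tut1 KO came from cells of the same genotype that received LNP with mRNA for Cre recombinase (Cre-LNP), which cuts out DNA between loxP sites. The Trp53 KO library was made the same way from p53f/f cells, and the double KO library from Tut1f/f;p53f/f cells, each 3 days after treatment. Tut1 encodes the enzyme that adds uridines to U6 snRNA, and Trp53 encodes the p53 tumour suppressor. Because the control received empty LNP, comparisons with it also compare Cre-LNP with empty LNP. The number of embryos behind each culture is not given in the sources used here. Below, 4 values in a row follow the order control, library labelled Tut1 KO, Trp53 KO, double KO.

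During forebrain development, signals from the midline and the anterior edge set up domains that are defined by combinations of transcription factors. Emx2, Pax6 and Lhx2 act in dorsal progenitors, where Emx2 and Pax6 form opposing gradients and Lhx2 keeps the cortical fate apart from the hem. Otx1 and Otx2 are needed for the forebrain and midbrain. Ventrally, Nkx2-1 marks the medial ganglionic eminence, Gsx2 the lateral ganglionic eminence, and Dlx1 and Dlx2 drive the formation of inhibitory interneurons.

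The promoter windows of a few factors are shown first because the factors behave differently in the data: Otx2 had the widest range over the libraries, Emx2 was the highest factor in each of them, and Nkx2-1 was listed at 0. Six3, a factor of the anterior forebrain and eye field that is not one of the 9, is added because its values followed those of Otx2. It was picked after its values were seen. RefSeq windows (build GRCm38.p6, 250 bases before to 50 bases after a start) were found for 8 of the 9 factors, 13 windows in all, and not for Otx1. Capitals mark the homeodomain core TAATTA, which reads the same on both strands, and the motif TAATCC, also where it lies on the other strand and so appears as GGATTA. Of the 13 windows, 3 held TAATTA, against 5.29% of all 32851 windows, and 1 held TAATCC, against 7.06% of all windows. The windows with TAATTA belonged to Otx2 and Emx2 only. Otx2 had more windows than any other factor, and some of them overlap, so the windows are not independent of each other. A match describes the letters only.
Otx2, chr14:48665060-48665359, minus strand: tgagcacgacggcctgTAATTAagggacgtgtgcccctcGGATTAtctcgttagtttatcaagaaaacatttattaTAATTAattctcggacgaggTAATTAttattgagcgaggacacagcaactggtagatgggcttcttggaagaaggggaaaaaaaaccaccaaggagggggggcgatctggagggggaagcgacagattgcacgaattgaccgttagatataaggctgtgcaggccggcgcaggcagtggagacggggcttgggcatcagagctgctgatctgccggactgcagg
Emx2, chr19:59458440-59458739, plus strand: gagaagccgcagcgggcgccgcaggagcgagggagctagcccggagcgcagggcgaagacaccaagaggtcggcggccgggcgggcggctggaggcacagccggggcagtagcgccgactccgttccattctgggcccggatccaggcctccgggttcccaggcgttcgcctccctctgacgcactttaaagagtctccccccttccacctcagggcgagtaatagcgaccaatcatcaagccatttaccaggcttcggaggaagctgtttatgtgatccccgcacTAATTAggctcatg
Nkx2-1, chr12:56536859-56537158, minus strand: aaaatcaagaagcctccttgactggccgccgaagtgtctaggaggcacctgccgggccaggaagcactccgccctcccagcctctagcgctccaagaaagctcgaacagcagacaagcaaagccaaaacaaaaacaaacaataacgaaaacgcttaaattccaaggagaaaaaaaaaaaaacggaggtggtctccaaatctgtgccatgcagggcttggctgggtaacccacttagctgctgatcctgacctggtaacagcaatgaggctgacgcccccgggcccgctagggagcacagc
Six3, chr17:85620584-85620883, plus strand: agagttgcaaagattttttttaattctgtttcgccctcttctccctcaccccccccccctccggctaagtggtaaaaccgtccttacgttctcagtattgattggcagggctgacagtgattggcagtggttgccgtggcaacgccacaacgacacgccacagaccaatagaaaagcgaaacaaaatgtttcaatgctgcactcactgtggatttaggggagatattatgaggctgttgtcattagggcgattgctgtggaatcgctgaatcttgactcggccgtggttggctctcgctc
Otx2 had 4 windows, and the one shown was chosen because it held the most matches, TAATTA 3 times and TAATCC 1 time. Of its other windows, 1 held TAATTA 1 time and 2 held neither motif. In the sequences shown, the Emx2 window held TAATTA 1 time. The Nkx2-1 and Six3 windows held neither.

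Values are in transcripts per 1000000 transcripts (TPM), which is per length, so different genes can be compared within a library. TPM keeps no read depth, so how deeply each library was sequenced could not be taken from these values. Between 14036 and 14145 genes reached 1 TPM per library. The Tut1 value did not follow the labels: it was 12.2, 29.8, 12.5 and 13.7 TPM, so directions drawn from the Tut1 labels rest on the labels. The study's own check of the deletion looked at exon 2, which the table, with 1 value per gene, does not show alone. Trp53 was 119.9, 100.4, 39.7 and 41.9 TPM. Xist, the RNA of the inactive X chromosome, was 0.00969, 188.1, 204 and 0.00895 TPM, and Y-linked Ddx3y 24.4, 0, 0 and 25.7 TPM. Sex-linked transcripts thus set the control and double KO apart from the other two libraries. In the library labelled Tut1 KO, the deviation of a gene from the other libraries went with the GC content of its transcript (Spearman's rho = 0.448 across 8469 genes, which are not independent replicates), whereas rho was -0.288 to 0.0668 in the others.

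The cells had the markers of neural stem cells. All 8 markers of the list were at 1 TPM or more, with summed levels of 10672 to 12562 TPM, and Fabp7, a radial glia lipid-binding protein, stood at 7902 to 9441 TPM. Markers of oligodendrocyte precursors were also present, with all 5 at 1 TPM or more and sums of 1559 to 1761 TPM. Most of it came from Olig1 (894.9 to 1029 TPM) and Olig2 (530 to 619 TPM). Cspg4 was at 53.4 to 74.6 TPM, Pdgfra at 27.4 to 39.5 TPM and Sox10 at 5.81 to 9.81 TPM. Of 5 astrocyte markers, 3 were present, with sums of 245.2 to 278.3 TPM, and Gfap stayed under 1 TPM. Of 6 neuronal markers, 5 reached 1 TPM, with sums of 162.9 to 231.2 TPM, most of it from Map2 (141 to 208.1 TPM). Tubb3 was at 11 to 12.6 TPM, Dcx at 2.42 to 3.13 TPM and Stmn2 at or under 0.112 TPM. No microglial, endothelial, fibroblast or choroid plexus and hem marker reached 1 TPM.

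Of the 9 factors, 6 reached 1 TPM in at least 1 library, 4 reached 10 TPM (Otx1, Emx2, Lhx2 and Pax6), and 3 stayed below 1 TPM in every library (Nkx2-1, Dlx1 and Dlx2). The 5 dorsal and anterior factors together gave 68.9, 61.2, 80.95 and 82 TPM. The 4 ventral factors gave 2.81, 2.38, 2.51 and 2.33 TPM. The ventral share of the summed values was thus 3.91%, 3.75%, 3.01% and 2.76%. In all 4 libraries the sum of the dorsal and anterior factors was the higher one. In lists of other genes the order was the reverse. There, 15 pallial genes summed to 9.98 to 13.3 TPM and 14 subpallial genes to 628.7 to 719.9 TPM. Olig2, at 530 to 619 TPM, gave most of the subpallial sum. The share over the 9 factors is thus no measure of how dorsal the cultures were. In such bulk samples, fewer cells with a factor and less of its RNA per cell cannot be told apart.

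**Figure D1:**
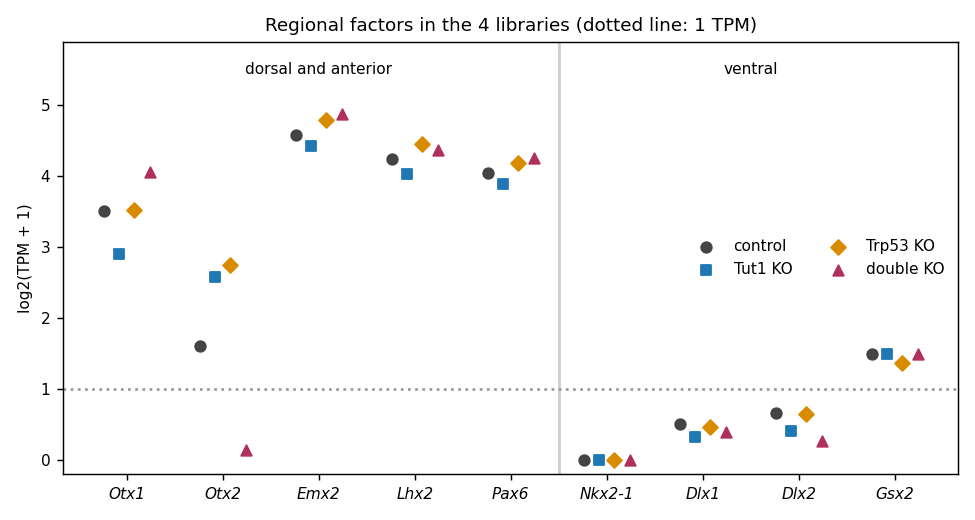
Level of each of the 9 regional factors as log2(TPM + 1) on the y axis, with 1 point per library and the dorsal and ventral factors side by side. Emx2, Lhx2 and Pax6 lie close together in the 4 libraries, Otx2 is near 0 in the double KO library only, and Nkx2-1, Dlx1 and Dlx2 lie under 1 TPM.

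Among the dorsal factors, Emx2 was highest in every library. Emx2 (chr19:59458372-59465357 in GENCODE M21, GRCm38), which patterns caudal and medial cortex, was at 23.1, 20.5, 26.7 and 28.3 TPM. It stood above 59.9% of genes at 1 TPM or more in the control and above 65.6% in the double KO library. Its antisense neighbour Emx2os, whose exons overlap on the opposite strand, was at 1.38 to 2.03 TPM.

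Lhx2, a LIM homeodomain factor that selects cortical fate (chr2:38339281-38369733), was at 17.9, 15.4, 21 and 19.8 TPM. Pax6, a paired domain factor of radial glia (chr2:105668900-105697364), was at 15.5, 13.8, 17.2 and 18.1 TPM. These 3 factors kept one order, Emx2 above Lhx2 above Pax6, in all 4 libraries. Their lowest value was in the library labelled Tut1 KO each time. Their ranges over the libraries on the log2(TPM + 1) scale were 0.45, 0.43 and 0.37, near the median range of all 15095 genes at 1 TPM or more (0.44).

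Otx1, a homeodomain factor of deep-layer cortex and its progenitors (chr11:21994764-22002897), was at 10.4, 6.52, 10.5 and 15.7 TPM. The control and Trp53 KO values were nearly equal and the others lay on either side of them. Otx1 and Otx2 were the 2 factors with a range of at least 1 (Otx1 1.15, Otx2 2.61). Among all genes at 1 TPM or more, 11.5% had such a range. Without the double KO library or without the library labelled Tut1 KO, only Otx2 kept a range of at least 1 (1.14 and 2.61), and the range of Otx1 was 0.61 and 0.55. Of all genes, 8.81% and 7.29% had such a range without these libraries.

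Otx2 (chr14:48657677-48673819), the homeodomain factor that sets up anterior neural tissue, was at 2.04, 4.99, 5.69 and 0.0954 TPM. The double KO value lay below every other library by at least 1.47 on the log2(TPM + 1) scale, and no ratio is given for it because it is so close to 0. Genes lower in the double KO library than in each other library by at least 1 made up 0.351% of the genes at 1 TPM or more, 53 of 15095. The higher Otx2 values were in the 2 libraries with Xist. For that split, with 1 library per group, sex and the combination of genotypes cannot be told apart. The control and the double KO library both had Y-linked transcripts and almost no Xist, and their Otx2 values were 2.04 and 0.0954 TPM. The cause of that difference was not tested. Gm49154, whose exons overlap those of Otx2 on the same strand, was at or under 0.0451 TPM and the antisense Otx2os1 at or under 0.14 TPM, and both were listed at 0 in the control and the double KO library.

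Ventral factors were low in every library. Nkx2-1 (chr12:56531958-56536908) was listed at 0 in all 4. Dlx1 (chr2:71528113-71533981) was at 0.415, 0.255, 0.381 and 0.314 TPM, and Dlx2 (chr2:71543408-71546754) at 0.572, 0.329, 0.558 and 0.2 TPM. The antisense Dlx1as was at 0.946 TPM in the control and 0.246 to 0.329 TPM elsewhere, and reads of Dlx1 and Dlx1as cannot be told apart if the counting did not use strand. Gsx2 (chr5:75075601-75077893) was the only ventral factor above 1 TPM, at 1.82, 1.8, 1.58 and 1.81 TPM, and had the narrowest range of the 6 factors that reached 1 TPM (0.13). It stood above 6.4% to 9.04% of genes at 1 TPM or more in each library.

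Differences between libraries are given on the log2(TPM + 1) scale, on which the differences of low genes come out too small. A factor was called different at 1 or more, first among genes with 10 TPM in at least 1 of the 2 libraries, and then with a minimum of 1 TPM. In the comparison of the library labelled Tut1 KO with the control, none of the 4 factors at 10 TPM was called, where 4.1% of 9032 genes were. None of the 6 at 1 TPM was called either, against 4.73% of genes, although Otx2 lay just under the threshold. Otx1 differed by -0.60 and Otx2 by 0.98, and Emx2, Lhx2 and Pax6 by -0.16, -0.21 and -0.15. When the trend with GC content and length was removed, Otx1 differed by -0.54, Otx2 by 1.09, which is past the threshold, and the other 3 by -0.14, -0.25 and -0.03. The median difference of the 6 factors was -0.16 and that of all genes -0.09.

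In the comparison of the double KO with the Trp53 KO library, none of 4 factors was called at the minimum of 10 TPM (background 3.21%), and Otx2 alone of 6 at 1 TPM (background 3.87%). Otx2 differed by -2.61 and Otx1 by 0.54. Otx2 was at 0.0954 TPM in the double KO library. In this and the other comparisons of that library, it passed the minimum of 1 TPM through the other library alone. Emx2, Lhx2 and Pax6 differed by 0.08, -0.08 and 0.08. The median of the 6 was 0.08, beside 0.04 for all genes.

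The Trp53 KO library against the control gave none of 4 at 10 TPM (background 3.83%) and Otx2 alone of 6 at 1 TPM (background 4.42%), with a difference of 1.14. Otx1 differed by 0.01, Emx2 by 0.20, Lhx2 by 0.22 and Pax6 by 0.14, and the medians were 0.17 for the 6 factors and -0.05 for all genes.

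The double KO against the library labelled Tut1 KO gave 1 call of 4 at 10 TPM, Otx1 with a difference of 1.15 (background 3.9%), and 2 of 6 at 1 TPM, Otx1 and Otx2 (background 4.64%). Otx1 passed the minimum of 10 TPM through the double KO library alone, and with 10 TPM asked of both libraries none of the 3 factors left was called. Otx2 differed by -2.45, and Emx2, Lhx2 and Pax6 by 0.45, 0.35 and 0.37. The median of the 6 was 0.36, beside 0.08 for all genes. With the same trend removed, these 3 differed by 0.43, 0.44 and 0.25 and Otx1 by 1.15.

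The double KO against the control gave none of 4 at 10 TPM (background 3.31%) and Otx2 alone of 6 at 1 TPM (background 4.23%), with a difference of -1.47. Otx1 differed by 0.55 and Emx2, Lhx2 and Pax6 by 0.28, 0.14 and 0.21. Gsx2 differed by -0.13 to 0.13 in all 5 comparisons. With a pseudocount of 5 in place of 1, Otx2 stayed past the threshold only for the double KO against the Trp53 KO (-1.07), and Otx1 lost its call (0.85). Several of the 5 share a library, so they are not independent of each other.

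**Figure D2:**
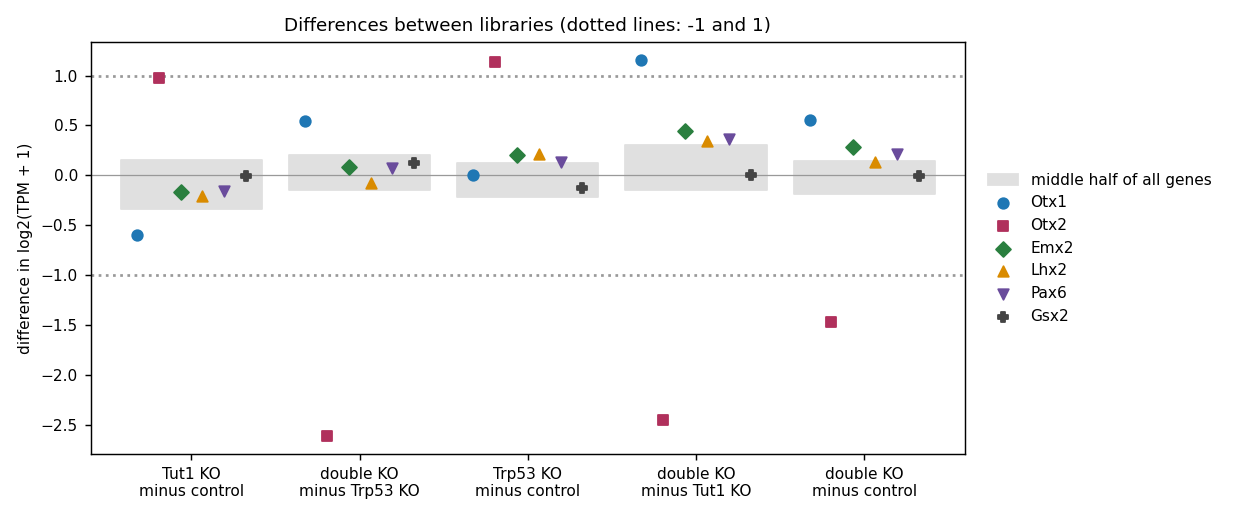
Difference in log2(TPM + 1) (y axis) of the 6 factors that reached 1 TPM, in 5 comparisons of libraries (x axis). Grey boxes span the lower to the upper quartile of all 15095 genes. Otx2 lies past 1 or -1 in 4 of the comparisons, Otx1 in the double KO against the library labelled Tut1 KO, and the other factors stay within 0.45 of 0.

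Over the 6 pairs of libraries, the median absolute difference of the 6 factors was 0.10 to 0.41 on the log2 scale, beside 0.17 to 0.26 for all genes at 1 TPM or more. It was 0.10 for the Trp53 KO and double KO libraries and 0.19 for the control and the library labelled Tut1 KO, an order that turned under quantile normalization (0.11 and 0.06). It was largest for the library labelled Tut1 KO and the double KO library (0.41, beside 0.24 for all genes). It was also above that of all genes for the control and the double KO library (0.25 and 0.17). The same held for the library labelled Tut1 KO and the Trp53 KO (0.33 and 0.24). In the other pairs it was below that of all genes, by least for the control and the Trp53 KO (0.17 and 0.18). The factor that differed most was Otx2 in 5 of the pairs and Otx1 between the library labelled Tut1 KO and the Trp53 KO (0.61). The order of the 9 factors by TPM was the same in all but the double KO library: Emx2, Lhx2, Pax6, Otx1, Otx2, Gsx2, Dlx2, Dlx1 and Nkx2-1. In the double KO library, Otx2 stood below Gsx2, Dlx1 and Dlx2, and Dlx1 above Dlx2. There is no spread over samples against which neighbours in these orders could be set.

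Other regional genes gave context for the 9 factors. Among the other telencephalic factors, all 8 reached 1 TPM in some library. Six3 was the single member of this list with a range of at least 1, at 6.6, 10.2, 15.8 and 0.134 TPM. Its antisense neighbour Six3os1, which is not in the list and was picked after its values were seen, was at 6.9, 15.8, 13.7 and 0.0956 TPM. Six3 and Six3os1 overlap on opposite strands, so their reads cannot be told apart if the counting did not use strand. Both were low in the library in which Otx2 was low, and were higher in the libraries with Xist. At the minimum of 1 TPM, Six3 was the only gene of this list called in any of the 5 comparisons: higher in the Trp53 KO than in the control, and lower in the double KO than in each other library. These were 4 of 37 pairs of a gene and a comparison (10.8%), where 3.87% to 4.73% of all genes were called. In those with the double KO library, Six3 reached 1 TPM in the other library alone.

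**Figure D3:**
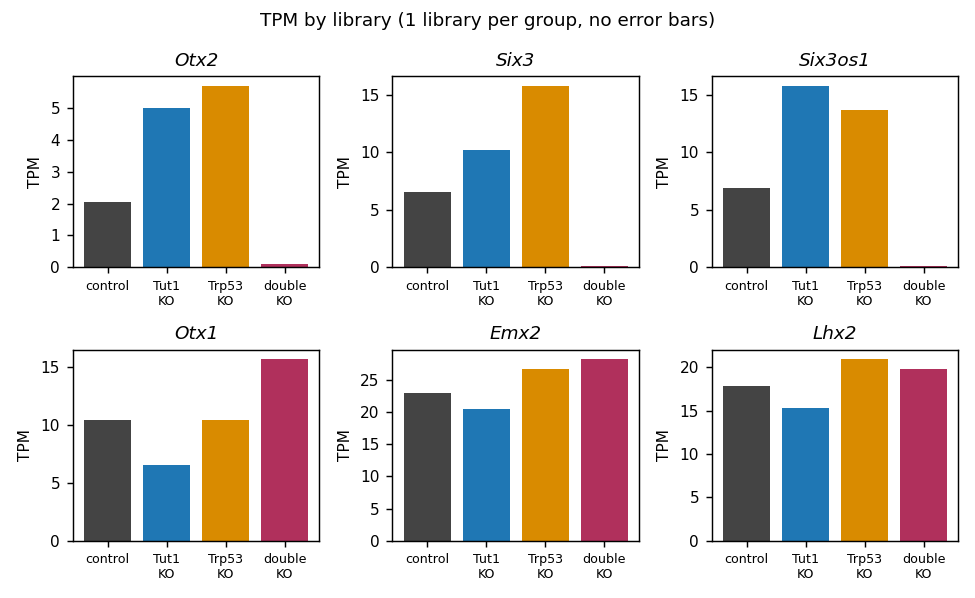
TPM (y axis) of Otx2, Six3, Six3os1, Otx1, Emx2 and Lhx2 in each of the 4 libraries, as bars from 0. Otx2, Six3 and Six3os1 are at or under 0.134 TPM in the double KO library, and Otx1, Emx2 and Lhx2 are at 6.52 TPM or more in all 4.

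Pallial genes outside the 9 were mostly low. Of 15, 13 stayed under 1 TPM in every library, among them Emx1, the dorsal partner of Emx2, at or under 0.0734 TPM, Eomes, the marker of intermediate progenitors, at or under 0.271 TPM, and Tbr1, a factor of deep-layer neurons, at or under 0.254 TPM. Dmrta2, which acts in cortical progenitors, was at 5.51, 8.77, 9.73 and 7.22 TPM. Of 14 subpallial genes, 8 reached 1 TPM. Gsx1, the close relative of Gsx2, was at 8.54 to 13.6 TPM. Olig2 was at 530 to 619 TPM and is also a marker of oligodendrocyte precursors, which this list cannot tell apart. Lhx6 and Isl1 were listed at 0, and Gad2 was at or under 0.161 TPM. Cells from a dorsal dissection thus had low Emx1, Eomes and Tbr1 beside high Olig2 in all 4 libraries. No pallial or subpallial gene of these lists was called in any of the 5 comparisons at 1 TPM (0 of 10 and 0 of 37 pairs of a gene and a comparison, where 3.87% to 4.73% of all genes were called), so few calls could have been seen. Their median differences ran from -0.06 to 0.16, beside -0.09 to 0.08 for all genes.

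Genes of more posterior regions were mainly low. All 30 Hox genes, which mark the hindbrain and spinal cord, stayed under 1 TPM in every library. Of 22 diencephalic and midbrain genes, 8 reached 1 TPM, and Irx1 alone had a range of at least 1, at 2.32, 3.32, 3.55 and 7.2 TPM. Tcf7l2 was at 10.1 to 15.7 TPM and En2 at 3.31 to 6.86 TPM, with its lowest value in the double KO library. Irx1, higher in the double KO than in the control, was the only call of this list, in 32 pairs of a gene and a comparison (3.12%, near the share of all genes), and its median differences ran from -0.17 to 0.37.

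**Figure D4:**
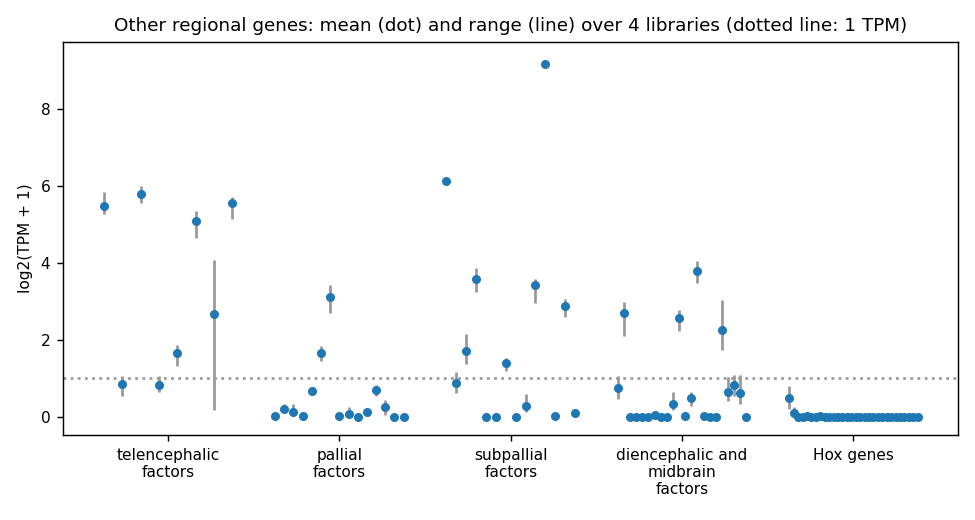
Level of each gene of 5 lists of other regional genes as log2(TPM + 1) (y axis), with the mean of the 4 libraries as a dot and their range as a line. The 30 Hox genes lie under 1 TPM, and Six3 has the widest range of the genes shown.

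Partners and upstream signals of the factors gave 6 calls at 1 TPM in 152 pairs of a gene and a comparison (3.95%), near the 3.87% to 4.73% of all genes. Of 10 LIM cofactors, through which Lhx2 acts, all reached 1 TPM and 9 had a range under 1. Rlim, which marks the cofactor Ldb1 for breakdown, was at 20.95, 17.7, 0.0176 and 20 TPM and was the only call of the list, in both comparisons with the Trp53 KO library. In both, Rlim reached 1 TPM in the other library alone. Ldb1 was at 119.1 to 165.9 TPM. Of 12 Hedgehog genes, the ventral signalling pathway, 9 reached 1 TPM, and Hhip, an inhibitor of the ligand, was at 0.798, 0.935, 2.62 and 3.46 TPM, called higher in 3 comparisons, those of the Trp53 KO and double KO libraries with libraries that kept Trp53. In these 3, Hhip passed the minimum of 1 TPM through the Trp53 KO or double KO library alone. Of 16 Wnt genes, the dorsal signalling pathway, 12 reached 1 TPM, and Wnt5a was at 8.89, 5.01, 10.6 and 4.5 TPM, called lower when the double KO was set against the Trp53 KO library. No median difference of these 3 lists exceeded 0.17 in size.

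The genes whose values were most like those of Otx1 over the 4 libraries, by the distance between deviations of log2(TPM + 1) from their mean, were Tex30 (0.06), Ifrd1 (0.11) and Zfp101 (0.13), out of 8439 genes at 10 TPM. For Otx2, for which this measure was added after its values were seen, the nearest were Tmem164 (0.58), Cdkn2d (0.69) and Neurl1b (0.72), out of 12218 genes at 1 TPM.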

How the data were processed

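Total RNA of 4 cultures was sequenced, with 1 library per group. The deposited TPM values were computed by the authors for each gene; the submitters' processing notes name Trimmomatic, HISAT2, StringTie and mm10, and give no versions. Per the labels, an Illumina stranded mRNA kit was used. The text of the series describes Nanopore long reads, for which the paper names the aligner minimap2. The processing notes of these TPM values do not name that aligner, so the descriptions differ and no source states the platform of the values outright. Use of strand, handling of shared exons and pooling are not given in the sources used here. No column of per-sample values was left unmapped.

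Differences were taken on log2(TPM + 1), with a minimum of 10 or 1 TPM and a threshold of 1. No test was run, since each group had 1 library. Members and gene lists were chosen with earlier results of these data known. Named genes were the 9 members, list genes at 1 TPM or defining markers near 0, Tut1, Trp53, Xist and Y-linked genes, and, for members at 10 TPM with a range of at least 1, the 3 most similar genes (predicted genes, Riken clones and pseudogenes left out). Of 55487 IDs, 55141 were found in GENCODE M21. The correction for composition removed a quadratic fit on GC content and length. The code was tested on simulated data. Tables were computed in Python 3.11.15 with pandas 2.3.3, numpy 2.4.6 and scipy 1.17.1, and plots drawn with matplotlib 3.10.9. Some genes of the lists are counted but not reported here by name.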

Additional observations from a re-analysis of the deposited data

Results flagged for a closer look

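These results are given because the Tut1 label went with opposite directions with Trp53 intact (Tut1 KO against control) and without it (double KO against Trp53 KO), and the 2 differences in log2(TPM + 1) were at least 1 apart. With 1 library per group the difference between them was not tested. The first comparison sets a library with Xist against one with Y-linked transcripts, and the second the reverse, so the difference between the 2 comparisons cannot be told apart from the sex-linked split of the libraries. Otx2 was 0.98 higher in the first comparison and differed by -2.61 in the second, 3.59 apart. Otx1 differed by -0.60 and 0.54, a difference of -1.15. Six3 differed by 0.56 and -3.89, 4.45 apart, and its antisense neighbour Six3os1 by 1.09 and -3.75, 4.83 apart. Dlx6, a partner of Dlx5 in interneurons, differed by 0.50 and -0.74, 1.23 apart. Irx5, a diencephalic factor, differed by -0.71 and 0.40, a difference of -1.11. Its values were near the floor, at 1.11, 0.295, 0.269 and 0.679 TPM, and reached 1 TPM in the control alone. Rlim differed by -0.23 and 4.37, a difference of -4.6, and was near 0 in the Trp53 KO library alone.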

How the results depend on the processing

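No paired analysis was possible because each group had 1 library, and no replicate could be left out within a group. The number of factors called in the library labelled Tut1 KO against the control went from 0 to 1 with a 1.5-fold threshold. That call was Otx1 (-0.60), and the share of all genes past that threshold was not computed. Otx2, at 0.98 in the same comparison and under the minimum of 10 TPM, was past 1 with a pseudocount of 0.1 (1.25), medians set to 0 (1.07), quantile normalization (1.08), rescaled TPM (1.05) and the correction for composition (1.09). With a minimum of 1 TPM and with no minimum, the number called went from 0 to 1 in the double KO against the Trp53 KO, the Trp53 KO against the control and the double KO against the control, and from 1 to 2 in the double KO against the library labelled Tut1 KO. That last count was 0 with a pseudocount of 5 and with a minimum of 10 TPM in both libraries. With no minimum, which adds 3 factors near 0, the median differences were 0.066 for the double KO against the library labelled Tut1 KO, 0 for the double KO against the control and against the Trp53 KO, and 0.0061 for the Trp53 KO against the control. Leaving out each library in turn, an alternative chosen after seeing the data, left 1 to 2 factors with a range of at least 1. Of all genes, 7.29% to 8.81% had such a range. The size of the Otx2 differences depended on the pseudocount: the double KO against the Trp53 KO gave -4.89 with 0.1 and -1.07 with 5. With 5, its other calls were lost, at 0.60 for the Trp53 KO against the control and, for the double KO, -0.97 against the library labelled Tut1 KO and -0.47 against the control. The smallest difference between libraries over the 6 factors was that of the Trp53 KO and double KO pair except under quantile normalization and when medians were set to 0, where the control and library labelled Tut1 KO were closer (0.061 and 0.10). No called difference changed direction. The values carry no read depth, so the counting error of low values, such as Otx2 in the double KO library, could not be estimated.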

Other observations

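Nkx2-2, a ventral factor that is also active in oligodendrocyte precursors, was not in any list and was picked after its values were seen. It was at 53.8, 48, 50.3 and 64.5 TPM in the order used above, beside Nkx2-1 listed at 0 in all 4. Naa30, on the same chromosome as Otx2 and also picked after its values were seen, was at 13.8, 12.2, 13.7 and 3.39 TPM, whereas Exoc5, which lies between them, was at 12.3 to 15 TPM. The genes lower in 1 library than in each of the others by at least 1 numbered 56, 91, 62 and 53 in that order of libraries.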
